A study of Mus musculus with 10 samples.

Results

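The genes described here are 10 regulators and signals of the posterior (caudal) end of the mouse embryo: the caudal homeobox genes Cdx1, Cdx2 and Cdx4, the T-box genes T and Tbx6, the homeobox gene Nkx1-2, the signalling genes Wnt3, Wnt3a and Fgf8, and Sp5, a transcription factor gene switched on by Wnt signalling. Every non-control probe whose transcript accession belongs to one of these genes was taken, which gave 15 probes for 10 genes among 55681 probes on the array. Of the genes, 7 had 1 probe each. The genes were chosen with their values after Hottip guide RNAs already known, so their differences in that comparison are given as a description and carry no test.

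RNA came from E14 mouse embryonic stem (ES) cells, a 129/Ola line grown in serum with 1000 U/ml of Lif, a cytokine that holds the cells undifferentiated. The cells received dCas9-VP160, a Cas9 that does not cut and carries repeats of the Vp16 activation domain, with 5 pooled guide RNA (gRNA) plasmids aimed at the promoter of Hottip (4 arrays) or of Hoxa13 (3 arrays). Hottip is a long noncoding RNA gene beside Hoxa13, the last gene at the posterior end of the Hoxa cluster. The control (3 arrays) carried control gRNAs by its label, non-targeting gRNAs and dCas9 alone by the methods, and no VP160 by the study's results, so it may have lacked the activator as well as the targeting guides. Transfected cells of all groups were selected with 2 µg/ml puromycin for 24 hrs and lysed 48 hrs after transfection, and each array held RNA of a separate biological replicate. These were transient transfections of cell pools, and the share of cells that took up each plasmid is not given in the sources used here.

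In the embryo, Wnt3, Wnt3a and Fgf8 signal from the primitive streak and tail bud, and T, Tbx6 and Nkx1-2 are transcription factor genes of the streak, the presomitic mesoderm and the posterior progenitors of spinal cord and mesoderm. The Cdx genes act downstream of Wnt and Fgf signals, bind Hox genes and help set the posterior Hox pattern. Cdx2 has a separate, earlier role in the trophectoderm, the outer cell layer that forms the placenta, and Cdx1 and Cdx2 are later kept on in intestinal epithelium.

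Promoter windows from RefSeq (build GRCm38.p6, 250 bases before to 50 bases after the gene's start, 300 bases in all) were matched by symbol for 8 of the 10 genes. Those of Cdx2, Sp5 and T are shown because these genes stood higher on all 4 Hottip gRNA arrays than on any control array. Each runs 5′ to 3′ on the gene's strand, and capitals mark matches to the motifs named next. The windows are chr5:147307200-147307499 (minus strand) for Cdx2, chr2:70474673-70474972 (plus strand) for Sp5 and chr17:8434173-8434472 (plus strand) for T.
Cdx2: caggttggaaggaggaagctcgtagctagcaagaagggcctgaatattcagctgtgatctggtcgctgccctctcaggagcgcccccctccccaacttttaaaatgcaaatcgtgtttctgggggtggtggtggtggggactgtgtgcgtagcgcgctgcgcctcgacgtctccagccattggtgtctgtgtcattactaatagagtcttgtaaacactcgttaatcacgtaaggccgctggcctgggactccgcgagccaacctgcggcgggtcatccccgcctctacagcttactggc
Sp5: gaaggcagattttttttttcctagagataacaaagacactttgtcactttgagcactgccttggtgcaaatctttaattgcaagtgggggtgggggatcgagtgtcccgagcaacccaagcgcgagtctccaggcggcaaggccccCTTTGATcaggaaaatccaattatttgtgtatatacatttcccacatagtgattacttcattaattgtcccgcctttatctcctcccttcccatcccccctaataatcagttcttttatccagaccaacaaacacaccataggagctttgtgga
T: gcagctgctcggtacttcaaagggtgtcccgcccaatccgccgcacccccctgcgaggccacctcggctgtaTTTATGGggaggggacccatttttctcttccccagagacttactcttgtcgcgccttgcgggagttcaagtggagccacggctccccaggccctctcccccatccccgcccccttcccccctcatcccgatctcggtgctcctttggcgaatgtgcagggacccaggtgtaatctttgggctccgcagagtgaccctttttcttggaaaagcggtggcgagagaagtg

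Both strands were searched for CTTTGAT (bound by Tcf/Lef factors, which carry the Wnt signal to DNA), TCACACC (the core of T-box sites), TTTATNG (bound by Cdx and posterior Hox proteins) and TATAAA (the TATA box). The Tcf/Lef letters were in 1 of the 8 windows, that of Sp5, where the match began 104 bases before the start of the gene, and 3.73% of all 32851 windows hold it. The Cdx and Hox letters were in the windows of T, 178 bases before the start, and Tbx6, 44 bases before the start, and 10.9% of all windows hold them. The match of Tbx6 lies on the opposite strand and overlaps its TATAAA, the only TATAAA in the 8 windows, against 13.6% of all windows. TCACACC was in none of the 8 windows and is in 3.98% of all. A match describes the letters of the window and is not evidence of binding.

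A level below is the log2 background-subtracted spot signal minus that array's 75th percentile over non-control spots, so that 0 is the brightness of the 75th-percentile spot. Levels of different probes were not compared, since probes differ in brightness. The signal at the 75th percentile was between 1096 and 2380 on the control arrays, 948 and 2572 on the Hottip gRNA arrays and 586 and 1086 on the Hoxa13 gRNA arrays, and 31.9% to 41.4% of probes were well above background by the mark of the scanner software. A probe with that mark on an array is called detected there. All 8 pluripotency genes examined, such as Pou5f1, Nanog and Sox2, were detected on all 10 arrays, as the label of ES cells requires. Hoxa13, whose promoter 1 guide pool targeted, was detected on none of the control arrays and was at least 81.3-fold and 144-fold higher (2 probes) after Hottip gRNAs. After Hoxa13 gRNAs the same probes were detected on 0 of the 3 arrays, so this targeted gene was not seen where its label places a rise, and no fold is given between these background values. The Hoxa13 gRNA arrays are therefore described as labelled, with no direction drawn from the label.

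Detection split the genes into 2 sets. Probes of Cdx1, Cdx2, Fgf8 (2 of its 3 probes) and Sp5 passed the filter for testing, detection on 3 or more of the 10 arrays, and no probe of the other 6 genes was. Among all 15 probes, 6 were never detected and 4 were detected on a single array. No spot of these genes was saturated or marked as an outlier. Of the probes of all genes, 164 of 22830 tested (0.718%) were called at an adjusted p under 0.05 between Hottip gRNAs and control, 40 of 22830 (0.175%) between Hoxa13 gRNAs and control, and 87 of 22825 (0.381%) between the 2 guide pools.

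After Hottip gRNAs, Cdx1 and Cdx2 were higher and Fgf8 lower than the control. These 3 of the 4 tested genes passed the threshold, as did 0.718% of all tested probes. Since the genes were selected on this comparison, passing it is no test of them and nothing is read from that count. Cdx2, detected on 4 Hottip gRNA arrays, 1 Hoxa13 gRNA array and no control array, could pass the detection filter only through the group where it is high. Both tested Fgf8 probes, each detected on 3 control arrays, 2 Hoxa13 gRNA arrays and no Hottip gRNA array, have the same limit. They could pass only with the control arrays, where they are high. The Fgf8 call was not stable: of the alternatives that tested it, A_55_P2101508 was called in 12 and A_55_P2108109 in 21 of 25. After Hoxa13 gRNAs none of the 4 was called by limma (smallest adjusted p = 0.435). Of the 4, 1 had an unadjusted p under 0.05, against 11% of all tested probes. Groups that did not overlap were seen for 6 of the 15 probes with Hottip gRNAs (Cdx1, Cdx2, T, Sp5 and 2 of Fgf8) and for 3 of 15 with Hoxa13 gRNAs (Cdx1, Cdx2 and 1 of Fgf8). Over all 55672 probes with a value in each group, 7.92% and 12.6% did not overlap in these comparisons, and over the tested probes 13.7% and 23.9%. The 2 comparisons share the 3 control arrays. In such bulk RNA, fewer cells making a transcript and less of it in each cell cannot be told apart.

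**Figure D1:**
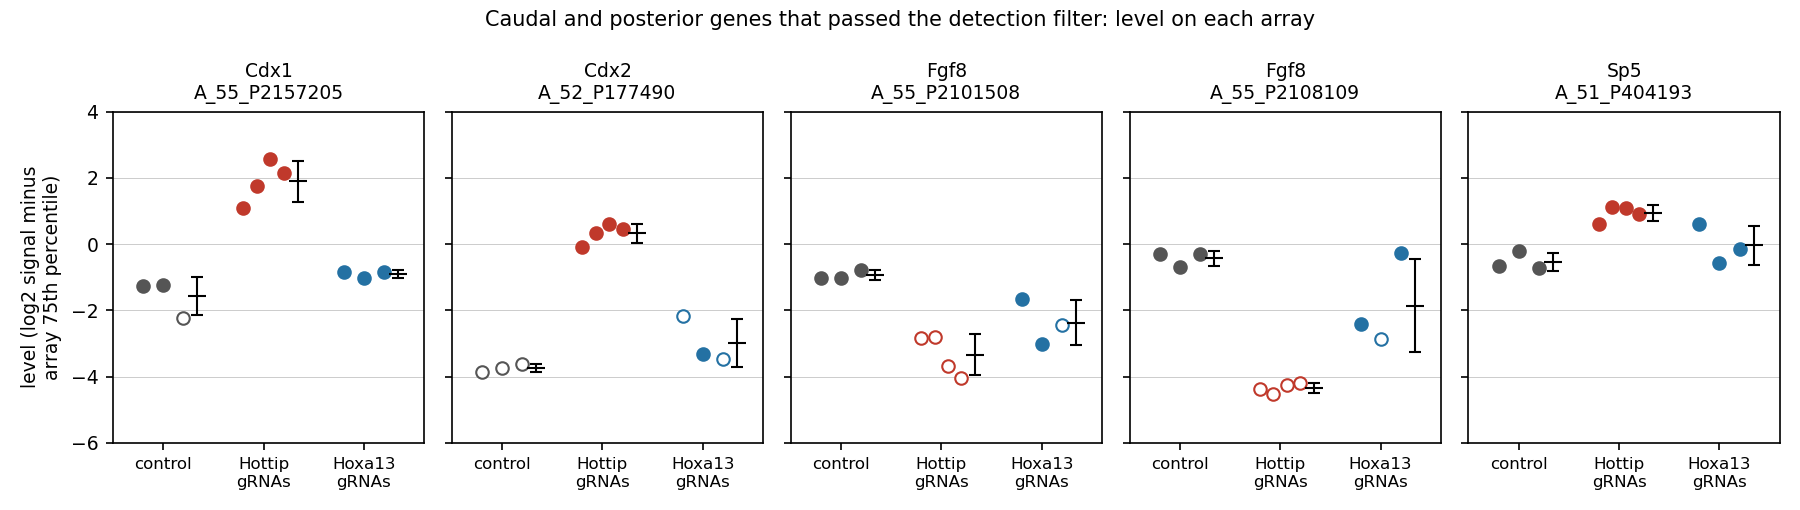
Level (log2 signal minus the array's 75th percentile) on each array for the 5 probes of Cdx1, Cdx2, Fgf8 and Sp5 that passed the detection filter, by group. Filled points were detected, open points were not, and black bars are mean ± SD. The 4 Hottip gRNA points of Cdx1, Cdx2 and Sp5 lie above all control points, and those of both Fgf8 probes lie below them and are open.

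Cdx2, the caudal homeobox gene with roles in trophectoderm, posterior axis and gut, had levels of -3.85, -3.74 and -3.63 on the control arrays. On none of them was it detected. With Hottip gRNAs its levels were -0.10, 0.32, 0.59 and 0.46, detected on all 4 arrays. The 4 values lay close together and far above all 3 controls. The group means were 0.32 ± 0.30 (SD, n = 4) and -3.74 ± 0.11 (SD, n = 3), a difference of 4.06 ± 0.39 (SE). Set against the lowest signal that counted as detected on the control arrays, Cdx2 was at least 13.3-fold higher.

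The Cdx2 levels with Hoxa13 gRNAs were -2.17, -3.33 and -3.48, detected on replicate 2 only. All 3 lay above the control arrays, by a mean of 0.75 ± 0.42 (SE, adjusted p = 0.494, limma). Over all tested probes, the median of the same difference was 0.19. Hoxa13 gRNA replicates 1 and 2 lay on another slide than the other 8 arrays. Their Cdx2 mean was -2.75, against -3.48 for replicate 3, which shared its slide with the control arrays (mean -3.74). Between the guide pools Cdx2 was 3.31 ± 0.39 higher with Hottip gRNAs, where the median over all tested probes was -0.26. This too is a description, because it uses the same 4 arrays.

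Cdx1, the paralogue that acts with Cdx2 in axial patterning and gut, read -1.27, -1.23 and -2.23 on the control arrays, detected on replicates 1 and 2. Its levels with Hottip gRNAs were 1.09, 1.75, 2.57 and 2.15, detected each time and above every other array. The difference in means was 3.46 ± 0.43 (SE), an 11-fold higher signal. Replicate 1 was the lowest of the 4 Hottip gRNA arrays for Cdx1, as it was for Cdx2 and Sp5.

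With Hoxa13 gRNAs, Cdx1 had levels of -0.83, -1.03 and -0.83, detected on all 3 arrays. These lay closely together above the control arrays, at a difference of 0.68 ± 0.46 (SE, adjusted p = 0.545, limma). The step between Hoxa13 gRNAs and control did not pass the test for Cdx1 or Cdx2, and that of Cdx2 lies between values mostly at background.

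Cdx4, the third caudal gene, was detected on 0 of the 10 arrays. Its levels ran from -5.87 to -4.59 on the control, -5.01 to -4.54 on the Hottip gRNA and -5.31 to -4.45 on the Hoxa13 gRNA arrays, and all 3 ranges overlapped. No fold is given where both groups are at background.

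Sp5, a zinc finger gene that answers directly to Wnt signalling, was detected on all 10 arrays. It read -0.67, -0.22 and -0.71 on the control arrays and 0.60, 1.11, 1.1 and 0.91 with Hottip gRNAs. The 4 Hottip gRNA values lay above the controls, at a difference of 1.46 ± 0.37 (SE), a 2.76-fold higher signal that was not called across all probes. Its levels with Hoxa13 gRNAs, 0.59, -0.56 and -0.16, spread over most of the range between the other groups and overlapped the control (0.49 ± 0.40, SE, adjusted p = 0.609, limma). The highest and the lowest of the 3, replicates 1 and 2, both lay on the other slide.

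T (Brachyury), the T-box gene of the primitive streak and notochord, gave a dim signal. Its levels were -4.45, -4.79 and -3.80 on the control arrays, -3.17, -2.98, -3.33 and -2.67 with Hottip gRNAs and -3.47, -4.89 and -4.22 with Hoxa13 gRNAs. The 4 Hottip gRNA values lay above all other arrays, but only on replicate 4 was it detected. The difference from the control was 1.31 ± 0.42 (SE), and no fold is given, since most of these values are at background. With Hoxa13 gRNAs the range of T enclosed all 3 control values.

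Fgf8, the ligand that keeps posterior progenitors proliferating and undifferentiated, moved the other way. Probe A_55_P2101508 read -1.03, -1.03 and -0.77 on the control arrays, where it was detected each time. With Hottip gRNAs it read -2.85, -2.81, -3.67 and -4.05, detected on none of the 4 arrays. The difference was -2.40 ± 0.44 (SE), and the control was at least 2.96-fold higher than the mean of the lowest detected levels of the Hottip gRNA arrays.

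The second Fgf8 probe, A_55_P2108109, showed the same split. It read -0.31, -0.69 and -0.30 on the control arrays, detected on all 3. With Hottip gRNAs it read -4.38, -4.53, -4.25 and -4.21, detected on none. The difference was -3.91 ± 0.55 (SE), and the control was at least 4.22-fold higher. Both differences are measured against background values. The third probe, A_55_P2101506, was never detected, and its levels overlapped (-5.55 to -3.99 on the control and -4.36 to -3.86 with Hottip gRNAs), so it gave no measure of Fgf8. All 3 probes are assigned to 1 RefSeq transcript accession.

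With Hoxa13 gRNAs the 2 detected Fgf8 probes disagreed on replicate 3. The first read -1.67, -3.03 and -2.43, all below the control arrays, with a difference of -1.43 ± 0.47 (SE, adjusted p = 0.435, limma). The second read -2.42, -2.88 and -0.27, and replicate 3, the array on the control's slide, lay just above the control arrays while replicates 1 and 2 lay below them (difference -1.42 ± 0.59, SE, adjusted p = 0.447, limma). The median level of the 11 by 11 spots around the second probe was 1.22 higher on the Hoxa13 gRNA than on the control arrays and 0.29 higher on the Hottip gRNA arrays. With the local median subtracted, the second probe differed from the control by -2.57 after Hoxa13 gRNAs (adjusted p = 0.0276, limma), a call it did not make as reported, and by -4.03 after Hottip gRNAs. Both probes passed the detection filter only with the control arrays, where they are high, so nothing is read from that call or from these p-values. With the slide as a block, where only replicate 3 bears on this comparison, the Hoxa13 gRNA difference of the second probe was 0.17 (adjusted p = 0.999, limma), and without replicate 3 it was -2.22 (adjusted p = 0.115, limma).

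**Figure D2:**
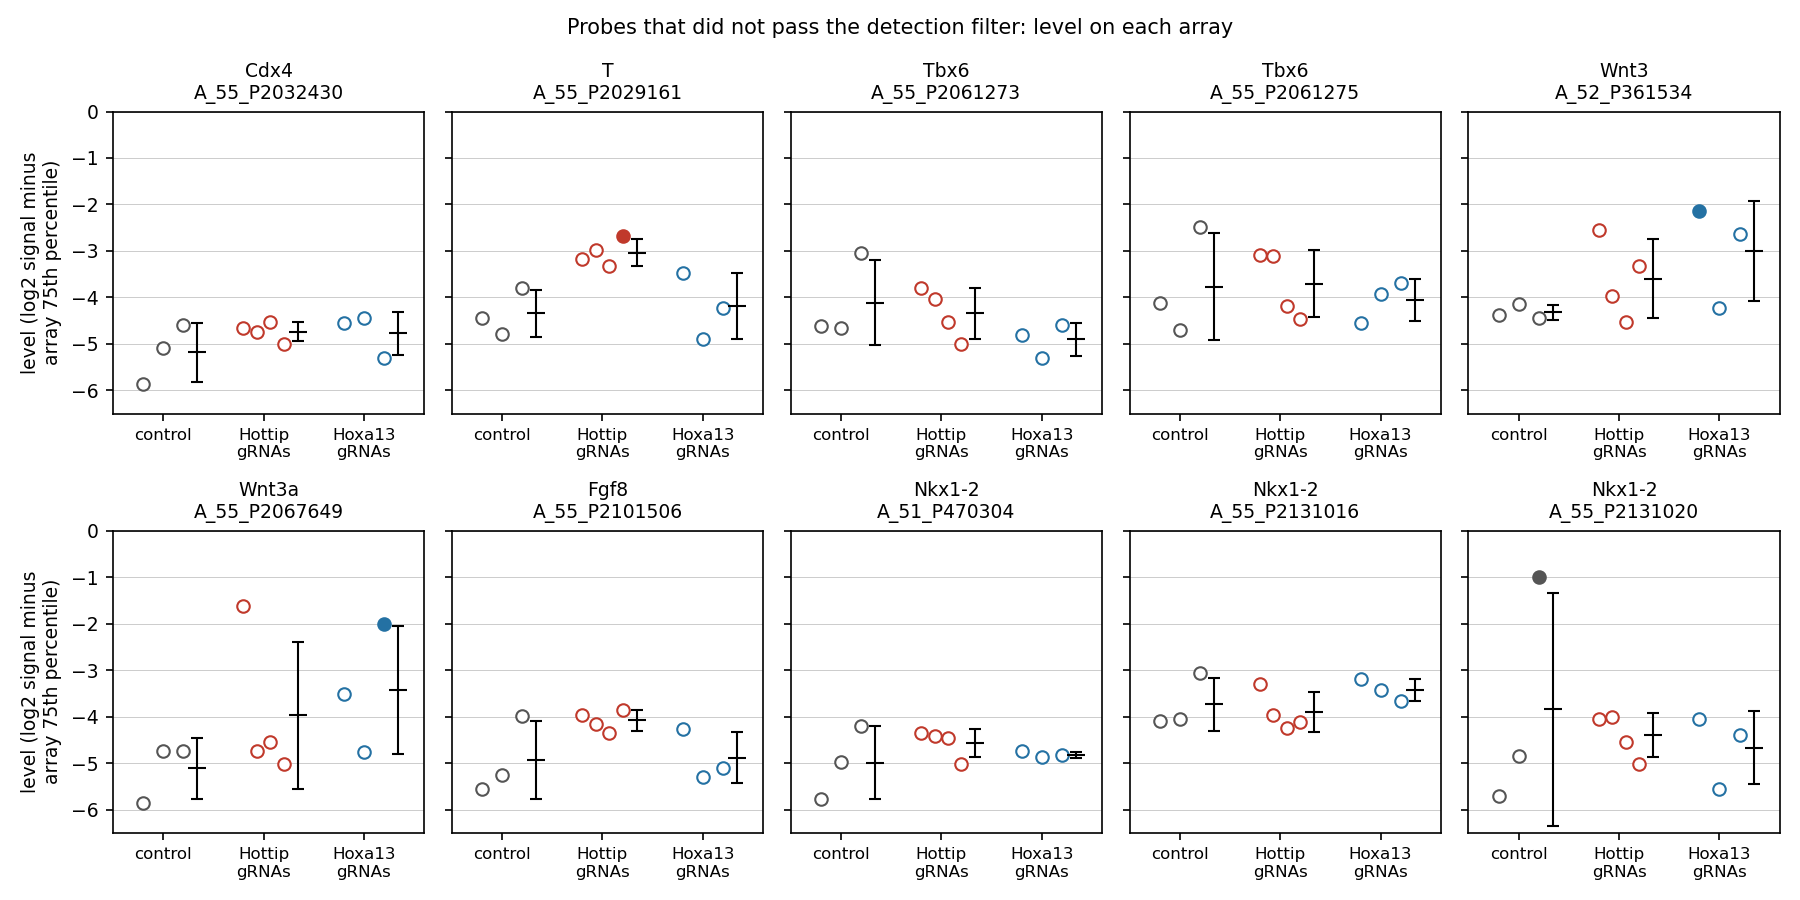
Level (log2 signal minus the array's 75th percentile) on each array for the 10 probes that did not pass the detection filter, by group. Filled points were detected, open points were not, and black bars are mean ± SD. There are 4 filled points, 1 each for T, Wnt3, Wnt3a and Nkx1-2, and only the T panel separates the Hottip gRNA arrays from the control arrays.

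The Wnt ligands were each detected on a single array. Wnt3, which is needed to start the streak, was detected on Hoxa13 gRNA replicate 1 only (-2.15), and its other levels ran from -4.54 to -2.55. Wnt3a, which sustains the tail bud, was detected on Hoxa13 gRNA replicate 3 only (-2.0). Its highest level, -1.62 on Hottip gRNA replicate 1, was not marked as detected, and the other 3 Hottip gRNA arrays read -5.01 to -4.54, as low as the control arrays (-5.87 to -4.73). The difference from the control was 0.73 ± 0.57 (SE) for Wnt3 and 1.14 ± 0.86 (SE) for Wnt3a after Hottip gRNAs, and 1.32 ± 0.61 (SE) and 1.69 ± 0.92 (SE) after Hoxa13 gRNAs. The groups overlapped for both genes in both comparisons, and most of these values are at background. The median level of the 11 by 11 spots around the Wnt3a probe was 1.42 higher on the Hoxa13 gRNA than on the control arrays and 0.66 higher on the Hottip gRNA arrays (0.18 and 0.31 around the Wnt3 probe).

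Tbx6, the T-box gene of presomitic mesoderm, was never detected with either of its probes, which ran from -5.30 to -3.05 and from -4.70 to -2.48. Nkx1-2, a homeobox gene of the progenitors beside the node and streak, had 3 probes. The first 2 were never detected, and the third, A_55_P2131020, was so on control replicate 3 alone (-0.99), where it stood far above the other 9 arrays (-5.71 to -4.0). Neither gene separated the groups.

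**Figure D3:**
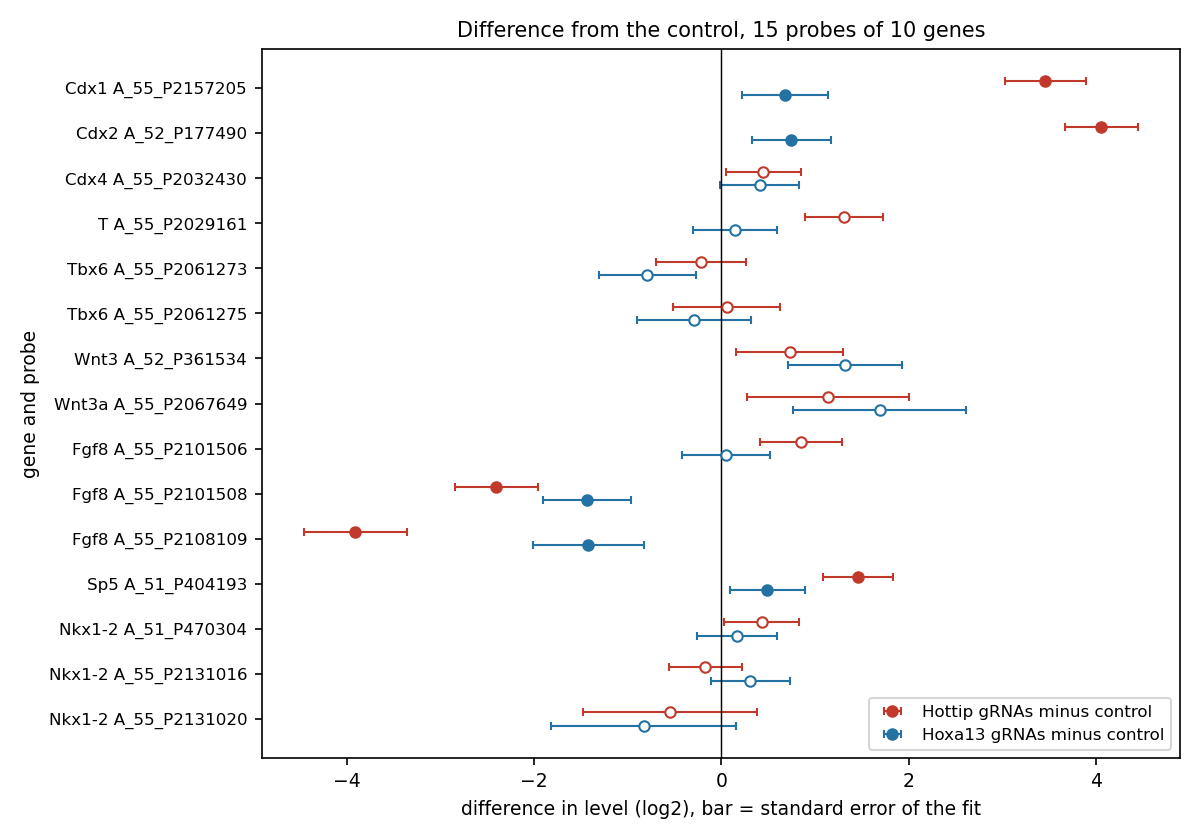
Difference in level from the control (log2, point) with the standard error of the fit (bar) for the 15 probes, after Hottip gRNAs (red) and Hoxa13 gRNAs (blue). Filled points passed the detection filter. Cdx1 and Cdx2 stand at 3.46 and 4.06 and 2 Fgf8 probes at -2.40 and -3.91 after Hottip gRNAs, while after Hoxa13 gRNAs the filled points lie between -1.43 and 0.75.

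Other genes of the same pathways were read from lists chosen with earlier results of these data known. In all, 105 genes were listed with the cell type markers, 68 were tested, and 3 (4.41%) were called after Hottip gRNAs, 0 after Hoxa13 gRNAs and 2 (2.94%) between the guide pools by limma, against 0.718%, 0.175% and 0.381% of all tested probes. The 3 include Krt7, which was detected on Hottip gRNA arrays alone. At an unadjusted p under 0.05 the counts were 14, 8 and 15 of 68 (20.6%, 11.8% and 22.1%), against 8.05%, 11% and 11.9% of all tested probes. None of the called genes had been placed in a Wnt, Fgf or streak list, though Ascl2, placed with the trophoblast markers, is also Wnt-responsive. Among the alternatives, Wnt5b was called after Hottip gRNAs with the slide as a block. Grhl3 was called between the guide pools with the percentile over detected probes and with quantile normalization.

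Of 25 Wnt pathway components, 19 were tested and 0 were called in any of the 3 comparisons (1, 1 and 2 at an unadjusted p under 0.05), with a median difference of -0.26 after Hottip gRNAs against -0.03 over all tested probes. The receptor genes Fzd10 (0.95, adjusted p = 0.937) and Fzd8 (0.88, adjusted p = 0.955) had the highest differences. Rspo1, a secreted booster of Wnt signalling (-1.16, adjusted p = 0.880), and its receptor Lgr4 (-1.01, adjusted p = 0.348) had the lowest. With outlier spots removed, Fzd8 rests on 2 of the 4 Hottip gRNA arrays, and Fzd10 and Rspo1 on 2 of the 3 control arrays. Of 10 Wnt target genes 6 were tested and 0 called (median -0.09, 1 with an unadjusted p under 0.05), from Notum, a secreted Wnt inhibitor, at 1.40 (adjusted p = 0.244) and the cyclin gene Ccnd1 at 0.65 (adjusted p = 0.999) to Cdkn1c at -0.79 (adjusted p = 0.864) and Sp8, the relative of Sp5, at -1.14 (adjusted p = 0.925). So Sp5, at 1.46, lay above each of these 6 targets, and the difference between Sp5 and the list was not tested.

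Of 10 further Wnt and Fgf ligands of the posterior embryo, 9 were tested and 0 called, with a median of -0.02 and 2 at an unadjusted p under 0.05. Wnt5b (1.16, adjusted p = 0.558) and Fgf5 (0.82, adjusted p = 0.896) were highest and Fgf17 (-0.35, adjusted p = 0.982) and Fgf18 (-1.22, adjusted p = 0.472) lowest. For both Wnt5b and Fgf18 an outlier spot was removed on 1 Hoxa13 gRNA array. Of 20 genes of streak, presomitic mesoderm and tail bud only 8 were tested and 0 called (median 0.15, 2 with an unadjusted p under 0.05), with Grhl3 (1.01, adjusted p = 0.348) and Eomes (0.88, adjusted p = 0.553) highest and the Notch ligand gene Dll1 (-0.73, adjusted p = 0.837) and Fst (-0.56, adjusted p = 0.945) lowest. Evx1, a homeobox gene of the posterior streak, had too few detections to be tested and is named after its values were seen. It read -3.66 to -2.66 on the control arrays, detected on none, and -1.55 to -1.22 with Hottip gRNAs, detected on 2 of the 4, at least 3.65-fold higher. These Hottip gRNA values rest on 3 of the 4 arrays, an outlier spot being removed, and not all of the 3 were detected. Whether the Evx1 level reflects streak cells was not tested. Of the 37 untested genes of all lists, 5 did not overlap between Hottip gRNAs and control, and all 5 were higher. Besides Evx1 they were Rspo3, Plac1, Krt20 and Stra6. Over all probes 7.92% did not overlap, and the share is smaller among untested probes, since it was 13.7% among tested ones. Between Hoxa13 gRNAs and control 3 of the 37 did not overlap (Apc, Hes3 and Vil1), and all 3 were lower. There 12.6% of all probes did not overlap, and the share is again smaller among untested probes, since it was 23.9% among tested ones. The mean level of the tested streak genes was 0.27 to 0.54 on the control arrays and 0.27 to 0.80 on the Hottip gRNA arrays.

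**Figure D4:**
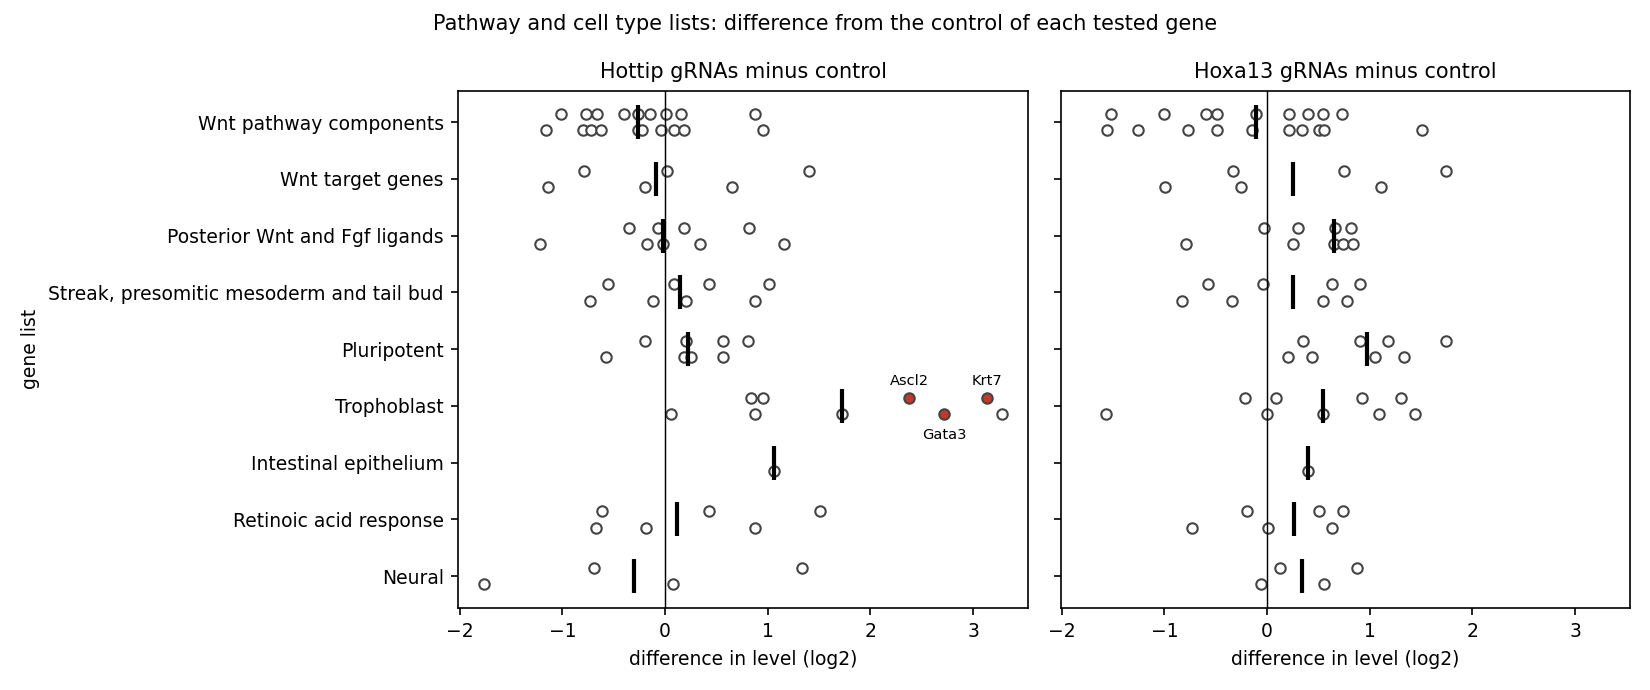
Difference in level from the control (log2) of each tested gene of the pathway and cell type lists, after Hottip gRNAs (left) and Hoxa13 gRNAs (right). Filled red points were called at an adjusted p under 0.05 and black bars are list medians. The 3 called genes, Ascl2, Gata3 and Krt7, are trophoblast markers after Hottip gRNAs, where that list's median was 1.72, and no other list held a called gene. Krt7 passed the detection filter through the Hottip gRNA arrays alone, and the lists were chosen with earlier results known. Nothing is read from the count or the median.

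Some markers of trophoblast, where Cdx2 is also active, were called as higher on the Hottip gRNA arrays beside Cdx1 and Cdx2. Of 12 markers, 9 were tested, 3 were called (against 0.718% of all tested probes) and the other 6 were not, and 6 of the 9 had an unadjusted p under 0.05 (against 8.05%), with a median difference of 1.72 against -0.03 over all tested probes. Krt7, 1 of the 3, passed the detection filter through the Hottip gRNA arrays alone, so nothing is read from its call, from the count or from the median. Gata3, a transcription factor gene of early trophectoderm, read -3.08, -2.22 and -2.65 on the control arrays and -0.24, -0.04, 0.26 and 0.30 with Hottip gRNAs, without overlap (difference 2.72 ± 0.37, SE, adjusted p = 0.00649, limma). Krt7, a simple epithelial keratin gene, was not detected on the control arrays (-4.53, -5.19 and -4.41) and was on all 4 Hottip gRNA arrays (-1.77, -1.60, -1.24 and -1.66), where it was at least 3.74-fold higher. It was not detected on the Hoxa13 gRNA arrays either. Ascl2, a trophoblast and Wnt-responsive transcription factor gene, read -0.95, -1.29 and -1.37 on the control arrays and 0.82, 1.51 and 1.20 on Hottip gRNA replicates 2, 3 and 4, its spot on replicate 1 being an outlier (difference 2.38 ± 0.36, SE, adjusted p = 0.0146, limma). In the alternatives tried, Gata3 was called in 24 of 26 (adjusted p up to 0.126) and Ascl2 in 20 of 27 (up to 0.336).

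Some markers of the list stayed dark. Elf5 and Hand1, defining markers of trophoblast stem cells and of giant cells, were never detected. Plac1, detected on 1 Hottip gRNA array only, was not tested. It read -2.87 to -1.96 on the Hottip gRNA arrays and -4.48 to -3.59 on the control arrays, without overlap. Tfap2c had the highest difference but a wide spread between control arrays (3.28 ± 0.74, SE, adjusted p = 0.115), and Krt18 (0.84, adjusted p = 0.715) and Tead4 (0.06, adjusted p = 0.999) the lowest. The mean level of the 9 tested markers was -1.50 to -1.11 on the control, -0.72 to 0.78 on the Hottip gRNA and -1.40 to -0.63 on the Hoxa13 gRNA arrays, and 4 of the 12 were detected on all control arrays. Whether these transcripts and those of Cdx1 and Cdx2 came from the same cells was not tested.

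With Hoxa13 gRNAs 0 of the 9 trophoblast markers were called by limma (smallest adjusted p = 0.447, and 2 had an unadjusted p under 0.05), with a median of 0.54 against 0.19 over all tested probes. Between the guide pools, Gata3 (2.72 ± 0.37, SE, adjusted p = 0.0149) and Ascl2 (2.29 ± 0.36, SE, adjusted p = 0.0324) were higher with Hottip gRNAs. The call of Ascl2 there held in 12 of 27 alternatives (adjusted p up to 0.31) and that of Gata3 in 21 of 26 (up to 0.125).

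Markers of the other tissue that keeps Cdx1 and Cdx2 on, intestinal epithelium, were mostly not detected: 7 of 8, Vil1, Cdh17 and Muc2 among them, were dark on every array. The eighth, Lgals4, was detected on all 10 arrays and stood higher on each Hottip gRNA array than on any control array, without a call (1.06 ± 0.33, SE, adjusted p = 0.316, limma) but with an unadjusted p under 0.05. Of the retinoic acid response genes 6 were tested and 0 called after Hottip gRNAs (0 at an unadjusted p under 0.05), with Crabp2 (1.51, adjusted p = 0.648) and Dhrs3 (0.88, adjusted p = 0.644) highest and Stra8 (-0.61, adjusted p = 0.999) among the lowest. Of the neural genes 4 were tested and 0 called (2 at an unadjusted p under 0.05), with Zic1 (1.33, adjusted p = 0.400) and Otx2 (0.08, adjusted p = 0.999) highest and Pax6 (-0.69, adjusted p = 0.999) and Sox1 (-1.76, adjusted p = 0.121) lowest. The 8 pluripotency genes had a median difference of 0.23 after Hottip gRNAs and 0 were called (0 at an unadjusted p under 0.05), from Klf4 (0.81, adjusted p = 0.926) and Esrrb (0.56, adjusted p = 0.909) to Zfp42 (-0.20, adjusted p = 0.999) and Sox2 (-0.58, adjusted p = 0.910).

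The genes whose levels across the 10 arrays were most like those of Cdx2 were ranked by Pearson's r among 8636 tested genes, as a description. Each gene was ranked by its tested probe with the highest r, and probes without a value on every array were left out. The leading 5 were Igf2, an imprinted fetal growth factor gene (r = 0.990), Ak4, a mitochondrial adenylate kinase gene (0.987), Hoxa13 (0.982), Myl1, a myosin light chain gene (0.981) and Crispld2 (0.979). Cdx2 itself was undetected on 5 of the 10 arrays and 4 of these genes were undetected on every control array, so r rests partly on the order of background values. Those 4 passed the detection filter only with the Hottip gRNA arrays. Ak4, detected on all 10 arrays, was 3.62-fold above the control after Hottip gRNAs, and the others were at least 4.22-fold (Myl1), 10.3-fold (Crispld2), 26.3-fold (Igf2) and 81.3-fold (Hoxa13) higher. The 10 arrays share their groups, slides and scaling. Cdx1 came 16th (r = 0.962) and Sp5 36th (r = 0.936), Krt7 and Gata3 9th and 11th (0.972 and 0.970), and Fgf8 stood near the opposite end (r = -0.786, rank 8518). T was too dim for such a ranking.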

How the data were processed

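The members and all gene lists were chosen with earlier results of these data known. The authors deposited scanner files with the spot intensity of each feature from Feature Extraction 11.5.1.1 (processed signal, background-subtracted, corrected for trends across the array on 8 arrays and not on Hottip gRNA replicates 3 and 4) with its marks for background, outliers and saturation. Their second deposited file, a table of log2 values by the authors, ranks spots as the background-subtracted median signal does and has nearly the same median on every array (7.19 or 7.20). How that table was made is not given beyond limma in the submitters' processing notes, and it was used as an alternative only.

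Of 62976 spots, 59305 were not controls. Outlier spots (0.312% to 7.28% per array) were left out, log2 of the processed signal was taken, each array's 75th percentile was subtracted and spots of 1 probe were averaged. Group means of some list genes therefore rest on fewer arrays than the group holds. Symbols came from RefSeq accessions (27656 of 55681 probes). The array header names mm9, and GRCm38.p6 served only for names and promoter windows. Group means over all 10 arrays were fitted with limma 3.58.1 (lmFit, eBayes) in R 4.3.3, with Benjamini-Hochberg adjustment over 22839 probes detected (marked well above background) on 3 or more arrays, tested on simulated data first. Calls were made at an adjusted p under 0.05. Of several probes of a gene in a list, the brightest over all arrays was used. An "at least N-fold" value sets the brighter group's mean against the dim group's mean of the lowest detected level on each array, or the probe's own where higher. Undetected spots can read above that lowest level, as Wnt3a did on Hottip gRNA replicate 1 (-1.62 against -2.32). It is therefore not a strict detection limit, and the bound is nominal. The number of arrays limits the precision, and p-values measure the spread between these replicates.

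Named genes were the members, Hoxa13, each list's called genes or, where under 4 were called, its 2 highest and 2 lowest after Hottip gRNAs, and the 5 genes most like Cdx2, except 1 gene that is not reported here. Alternatives were 4 scalings or background corrections, the authors' log2 values, 3 detection filters, slide and replicate blocks, 1 slide only, 2 groups only, an intensity trend, the mean of a gene's probes, local brightness, each array left out, and 2 more settings chosen after seeing the data (normexp with quantile normalization, and the eBayes prior from tested probes). Normexp (offset 50) used the median spot signal. Protein sequences were not used here.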

Additional observations from a re-analysis of the deposited data

Results flagged for a closer look

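In the group of 4 Hottip gRNA arrays, 54 probes of the members, Hoxa13 and the named list genes were examined for an array far from the others, by Dixon's ratio of the gap to the whole range, and 3 passed its 95% critical value, as chance alone would for about 1 in 20 probes. The Wnt3a probe stood at -1.62 on replicate 1 against -5.01 to -4.54 on the other 3 arrays (ratio 0.862), without being marked as well above background there. Rspo1 was lowest on replicate 1, at -1.42 against 0.17 to 0.43 (ratio 0.860). Lgals4 was lowest on replicate 4, at 0.14 against 0.75 to 0.82 (ratio 0.892).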

How the results depend on the processing

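Across 27 alternatives (25 planned, 2 added after seeing the data), the differences from the control after Hottip gRNAs kept their sign for Cdx1 (2.99 to 3.73), Cdx2 (3.01 to 4.43), Sp5 (1.36 to 1.74) and Fgf8 (-2.58 to -1.74 for A_55_P2101508 and -4.04 to -2.5 for A_55_P2108109, at -2.55 with normexp and -2.89 in the authors' log2 values), and for T (0.81 to 1.64) in the 26 that gave a value. Cdx4, Tbx6 and Nkx1-2, at background, changed sign in 4, 6 and 2 of 26 without a call in either direction. Fgf8 (A_55_P2101508) was called in 12 of the 25 that tested it, Cdx1 in 24 and Cdx2 in 25 of 26, counts that describe the settings and support nothing, since these genes were chosen on this comparison. The filter on all 10 arrays, which left Cdx1, Cdx2 and Fgf8 untested, gave 5, 0 and 0 called probes in the 3 comparisons (Hottip gRNAs against control, Hoxa13 gRNAs against control, and between the guide pools) and 0 genes of the 10 or of the lists. After Hoxa13 gRNAs 0 of the 10 and 0 list genes were called in every alternative by the brightest probe of each gene, while the second Fgf8 probe, A_55_P2108109, was called in 1 of the 25 that tested it (-2.57 with the local median subtracted, against 0.17 at the highest). There the median difference of all tested probes ran from -0.21 to 0.27 with the setting (0.19 as reported), and the differences of T, Cdx4, Tbx6 and Nkx1-2 changed sign in 5, 4, 6 and 3 of 26.

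The replicate numbers did not pair the arrays: 1 of 9 same-numbered pairs correlated above 0.1 (r from -0.37 to 0.18), and 0 of 10 arrays correlated best with their own number. A replicate block gave 13, 2 and 8 called probes in the 3 comparisons, and 0 of the 10 genes and 0 list genes in each (smallest adjusted p among the 10 genes 0.0554 after Hottip gRNAs).

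For Hottip gRNAs against control, 164 probes were called as reported, 413 with the slide as a block and 109 in the authors' log2 values. For Hoxa13 gRNAs against control, 40 became 88 with centring on the median, 16 with no filter on dim probes, 73 with the slide as a block, 22 with only the 2 groups compared, 25 with an intensity trend and 86 with the local median subtracted. Between the guide pools, 87 became 138 with the percentile over detected probes, 31 with no filter, 133 with the slide as a block, 48 on the slide with all 3 groups, 153 with the local median subtracted, 143 with the prior from tested probes and 168 with normexp and quantile normalization. There, of the 10 genes 1 (Cdx2) and not 2 was called with centring on the median, normexp, normexp with quantile normalization, the authors' log2 values, no filter, the slide as a block, the slide with all 3 groups and the local median. List genes called there were 4 with the percentile over detected probes, 0 on the slide with all 3 groups, and 1 with centring, no filter, the slide as a block, only the 2 groups and the local median. The cause was not tested.

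Leaving out each array in turn gave 56 (without control replicate 2) to 240 called probes for Hottip gRNAs against control, 2 to 3 of the 10 genes (Cdx1 and Cdx2 in each) and 1 (Gata3, without control replicate 2) to 3 list genes. The count was 100 without control replicate 1, without Hottip gRNA replicate 3 and without Hottip gRNA replicate 4. It gave 3 to 130 probes for Hoxa13 gRNAs against control, and 11 to 116 probes, 0 to 2 of the 10 genes and 0 to 2 list genes between the guide pools. The 0 of the 10 genes came without Hoxa13 gRNA replicate 2, and the 0 list genes without replicate 2 and without replicate 3 of that group. Signal over background kept 6 of the 10 genes from being tested, and 3 or 4 arrays a group limit the precision of the others.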

Other observations

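The table of log2 values made by the authors is on another scale than the levels above. Cdx2 read 10.28 to 10.85 on the Hottip gRNA arrays there, 7.50 to 8.32 on the Hoxa13 gRNA arrays and 6.20 to 7.76 on the control arrays, so that the latter groups overlapped, unlike in the levels above. Cdx1 read 11.13 to 12.65, 9.29 to 10.21 and 7.39 to 9.59 in the same groups, with the same overlap. T read 7.60 to 8.24 on the Hottip gRNA arrays, 6.02 to 6.60 on the Hoxa13 gRNA arrays and 6.50 to 6.96 on the control arrays. Fgf8 (A_55_P2101508) read 7.41 to 7.65, 8.17 to 8.83 and 9.14 to 9.92 in the same groups, without overlap between any of them.

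On the arrays labelled as Hoxa13 gRNAs, all 8 pluripotency genes read higher than on the control arrays, with a median difference of 0.97 against 0.19 over all tested probes. None was called by limma (smallest adjusted p = 0.34) and 3 of the 8 had an unadjusted p under 0.05, against 11% of all tested probes. The Nanog spot on Hoxa13 gRNA replicate 2 and the Pou5f1 spot on control replicate 3 were saturated and kept at their values, so each is a lower limit.

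The median level of the 11 by 11 spots around a probe differed between the Hottip gRNA and control arrays by 0.20 at Cdx1, -0.20 at Cdx2, -0.11 at Sp5, -0.16 at T and 0.17 and 0.29 at the detected Fgf8 probes.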
